A study of Mus musculus with 54 samples.

Results

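BRG1 (Smarca4), the ATPase subunit of the BAF chromatin remodelling complex, was measured by ChIP-seq in cultured mouse B-cell progenitors with and without the transcription factor Ebf1, and is described here at every deposited region bound by Ebf1. All rows of both deposited tables that hold the BRG1 columns were taken, which gave 1172 regions, against 4829 distinct accessible regions in the table of the whole series. BRG1 was compared between Ebf1-KO and Wt fetal liver cells, with 1 library for each genotype among the 54 samples of the series. Both were labelled ProB and C57BL6/J, and the labels' protocols give the same growth conditions for both: expansion on OP9 stroma in the presence of interleukin-7 and the ligands of KIT and FLT3. Both were immunoprecipitated with the same polyclonal anti-BRG1/Smarca4 antibody after fixation with DSG followed by formaldehyde. The labels do not say whether fetuses were pooled.

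Each region had been assigned by the submitters to 1 of 2 classes: 256 regions were open (accessible by ATAC-seq) in Wt only, and 916 were open in both Ebf1-KO and Wt cells. The class therefore depends on accessibility and not on BRG1. The Ebf1 peaks that define the regions came from the 230-238 pre-B cell line, not from the cultured progenitors, and the regions lie near genes that the submitters selected as Wt-enriched. Gene names are those of the nearest start in the deposited annotation, and 32 regions carry no gene name. The lists of myeloid, erythroid, natural killer and stromal marker genes used here had no region in these tables, so the cell type label could not be checked with them.

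Ebf1 is a DNA-binding factor that B-cell specification requires, acting with Tcf3 (E2A), Foxo1 and later Pax5. BRG1-containing BAF complexes use ATP to slide or evict nucleosomes, and sites where they act are usually accessible. EP300 is a histone acetyltransferase found at active enhancers and promoters, and RNA polymerase II (PolII) marks transcribed and poised sites.

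The promoters below are shown because BRG1 differed between them although all lie inside Ebf1-bound regions open in both genotypes. Each line gives the 250 bases before the RefSeq start (GRCm38.p6), 5′ to 3′ in the direction of the gene. Capitals mark CCCNNGGG, the inner letters of the Ebf1 palindrome, which read the same on both strands. BRG1 was at least 2-fold lower in Ebf1-KO cells at the regions of Pou2af1, Cd79a and Igll1, at least 2-fold higher at Hmgb1, and neither at Cd22 and Dok3.
Pou2af1: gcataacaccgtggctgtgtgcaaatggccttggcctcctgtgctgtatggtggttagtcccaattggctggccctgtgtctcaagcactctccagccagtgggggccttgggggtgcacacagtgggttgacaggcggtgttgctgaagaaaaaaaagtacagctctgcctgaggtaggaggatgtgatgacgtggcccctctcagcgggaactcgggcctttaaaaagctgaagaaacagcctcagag
Cd79a: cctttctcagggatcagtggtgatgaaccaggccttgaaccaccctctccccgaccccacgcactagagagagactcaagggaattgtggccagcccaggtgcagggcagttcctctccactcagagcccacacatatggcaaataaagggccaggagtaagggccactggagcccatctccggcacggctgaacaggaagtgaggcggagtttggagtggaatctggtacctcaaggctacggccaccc
Igll1: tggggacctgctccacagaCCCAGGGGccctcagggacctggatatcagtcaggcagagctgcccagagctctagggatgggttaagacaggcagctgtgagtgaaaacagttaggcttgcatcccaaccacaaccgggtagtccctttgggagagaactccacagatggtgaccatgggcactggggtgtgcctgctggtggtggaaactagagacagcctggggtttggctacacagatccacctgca
Cd22: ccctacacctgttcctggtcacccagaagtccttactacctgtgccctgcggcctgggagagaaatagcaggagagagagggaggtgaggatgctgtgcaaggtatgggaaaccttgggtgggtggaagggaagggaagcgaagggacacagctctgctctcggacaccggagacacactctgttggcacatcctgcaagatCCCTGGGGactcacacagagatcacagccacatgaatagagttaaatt
Dok3: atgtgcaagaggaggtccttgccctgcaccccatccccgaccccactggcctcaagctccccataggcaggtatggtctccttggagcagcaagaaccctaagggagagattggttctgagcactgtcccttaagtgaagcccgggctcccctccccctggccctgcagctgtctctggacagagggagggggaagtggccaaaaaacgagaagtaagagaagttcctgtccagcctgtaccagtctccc
Hmgb1: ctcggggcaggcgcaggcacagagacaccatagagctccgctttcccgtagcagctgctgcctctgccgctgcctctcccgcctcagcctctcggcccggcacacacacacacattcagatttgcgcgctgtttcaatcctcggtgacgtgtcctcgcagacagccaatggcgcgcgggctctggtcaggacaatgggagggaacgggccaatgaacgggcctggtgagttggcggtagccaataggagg
The windows lie at chr9:51213440-51213689 (plus strand) for Pou2af1, chr7:24897247-24897496 (plus) for Cd79a, chr16:16863986-16864235 (minus) for Igll1, chr7:30879029-30879278 (minus) for Cd22, chr13:55528539-55528788 (minus) for Dok3 and chr5:149053058-149053307 (minus) for Hmgb1. These letters were found in Igll1, beginning 231 bases before the start, and in Cd22, beginning 48 bases before it, and not in the windows of the other genes shown.

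Across RefSeq promoters, 277 windows lay wholly inside 226 of the Ebf1-bound regions. CCCNNGGG was present in 31.4% of these windows, against 11.8% of all 32851 RefSeq promoters. By BRG1, it was present in 10 of 48 windows where BRG1 was at least 2-fold lower in Ebf1-KO cells (20.8%), in 69 of 210 windows with neither call (32.9%) and in 8 of 19 windows where it was at least 2-fold higher (42.1%). The 19 windows lie in 16 regions. With at most 1 other letter allowed, the match was present in 83.3% (lower), 94.8% (neither) and 89.5% (higher), and in 69.3% of all promoters. The share thus rose from lower to higher calls with the exact letters only. The E-box CAGGTG, searched on both strands, was present in 18.8%, 20.5% and 5.26% of the same windows and in 17.2% of all promoters. These are matches of letters within 250 bases and several windows share a region, so no test was made.

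BRG1 values are tags in a region scaled by the submitters to 10000000 tags per library. The Ebf1-KO library held 47681817 tags, of which 0.18% fell in the 1172 regions, and the Wt library held 52852376 tags, of which 0.208% did. The difference is log2 (value + 1) in Ebf1-KO minus that in Wt, and a region is called lower or higher at a difference of at least 2-fold on that scale. With 1 library per genotype no test between genotypes was possible. Intervals of values and folds are exact 95% intervals for counting error only. Reads without molecular identifiers are not independent molecules, so these intervals can be too narrow. Intervals of medians are 95% intervals over regions, which are not replicates.

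BRG1 was lower in Ebf1-KO cells at many Ebf1-bound regions and higher at fewer. Every region was open in Wt cells, and none was open in Ebf1-KO cells only. This selection can itself favour lower over higher calls, and its part in the counts below was not tested. The median region held 11.3 tags in Ebf1-KO cells and 16.1 tags in Wt cells, and the median difference was -0.29 (95% interval over regions -0.37 to -0.20), with quartiles of -1.35 and 0.44. BRG1 was at least 2-fold lower in Ebf1-KO cells at 380 regions (32.4%) and at least 2-fold higher at 117 (9.98%). The counting interval of the ratio excluded equality at 379 of the 380 lower regions and at all 117 higher ones. Scaling the libraries on the regions themselves (TMM) removed a shift of -0.30 and left 307 lower and 195 higher regions, so lower regions were 61.2% of calls, against 76.5% with the deposited scaling. Single differences below are therefore to be read against this shift.

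**Figure D1:**
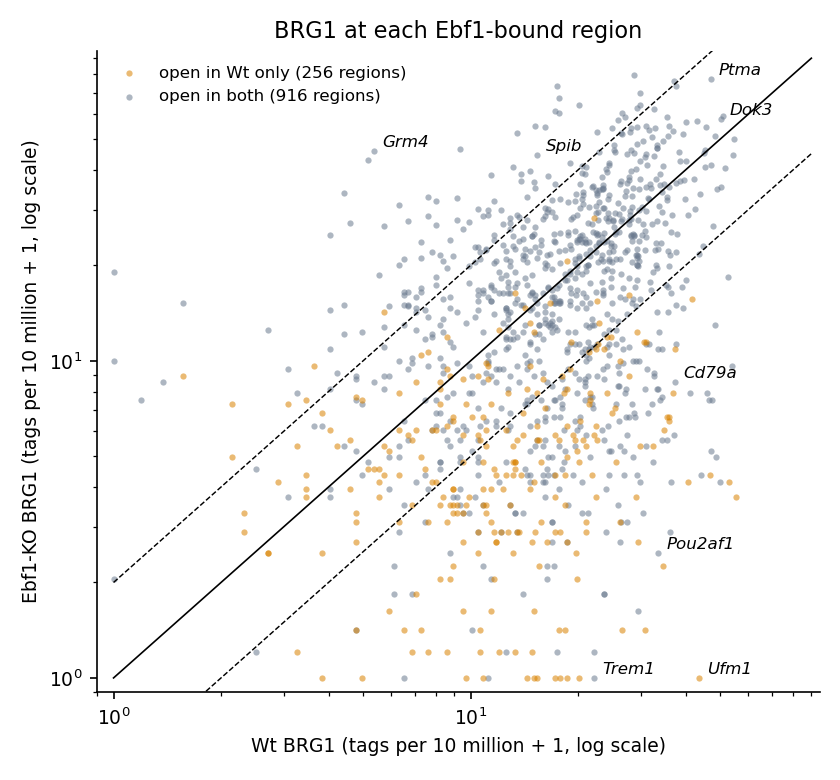
BRG1 in Ebf1-KO cells (y axis) against Wt cells (x axis), in scaled tags plus 1, both axes log scale, with 1 point per region (orange, 256 regions open in Wt only; grey, 916 open in both). The solid line marks equal values and the dashed lines 2-fold; the orange points lie mostly below the lower dashed line (165 of 256), and Grm4 and Spib lie above the upper one.

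Lower BRG1 was more frequent at regions open in Wt only. Their median was 3.57 tags in Ebf1-KO cells and 11.1 tags in Wt cells, a median difference of -1.43 (-1.56 to -1.24), and 165 of 256 (64.5%) were lower while 7 (2.73%) were higher. Regions open in both genotypes had medians of 15.3 tags in Ebf1-KO cells and 17.8 tags in Wt cells, a median difference of -0.10 (-0.17 to -0.01), with 215 of 916 lower (23.5%) and 110 higher (12.0%). The medians of the classes were 1.34 log2 units apart (Wt only minus both, -1.34). TMM was applied as 1 shift to all log2 differences, so it could not change this gap. The gap does depend on the number added before the log. With 5 in place of 1 the medians were -0.90 (Wt only) and -0.073 (both), and with 0.1 they were -1.65 and -0.11. With TMM scaling the median of the regions open in both turned to 0.21, with 168 lower and 186 higher, whereas that of the regions open in Wt only stayed below 0 at -1.13, with 139 lower and 9 higher.

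Regions open in Wt only were shorter (median 664.5 bp, against 1090 bp), so levels were also compared per kb. Median Ebf1-KO BRG1 was 5.23 tags per kb at regions open in Wt only and 14.5 at regions open in both. Median Wt BRG1 was 17.3 tags per kb at regions open in Wt only and 16.3 at regions open in both. Across the regions open in both, the levels per kb of the Ebf1-KO and Wt libraries followed each other weakly (Spearman rho 0.33, n = 916 regions), and across those open in Wt only hardly (0.11, n = 256).

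Among B-lineage transcription factors, BRG1 was lower at most regions. The list has 24 genes, of which 9 had 15 regions here. In Ebf1-KO cells 10 regions were lower (66.7%, against 32.4% of all regions), 2 higher and 3 neither. The median difference was -2.11 beside -0.29 over all regions. With TMM scaling 9 regions were lower and 2 higher. Several regions share a gene: with each gene taken by its region with the highest mean value, 5 of the 9 genes were lower and 2 higher. The promoter region of Pou2af1, the OCA-B coactivator of octamer factors (chr9:51212995-51214114), held 1.47 tags in Ebf1-KO cells and 32.5 tags in Wt cells, 22.2-fold lower (10.5 to 56.0). All 4 regions of Lef1, a Wnt-responsive factor of early B cells, were lower, with 3.36 to 4.82 tags in Ebf1-KO cells and 23.7 to 43.1 tags in Wt cells; they extend from 90.8 kb before its start to 5.10 kb after it.

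Foxo1, which drives expression of recombination genes, had 2 regions, 175.9 and 190.2 kb after its start. They held 6.92 and 5.45 tags in Ebf1-KO cells, against 40.1 and 25.0 tags in Wt cells, which is 5.80-fold (4.00 to 8.64) and 4.58-fold (2.99 to 7.27) lower. The Tcf3 intron region 3.51 kb after the start held 5.66 tags in Ebf1-KO cells and 27.8 tags in Wt cells. A second Tcf3 region, 9.54 kb before the start, held 11.3 tags in Ebf1-KO cells and 9.84 tags in Wt cells, and its ratio interval included equality. Irf4, a factor of light-chain rearrangement and plasma cells, held 1.05 tags in Ebf1-KO cells and 10.4 tags in Wt cells at an intron region 1.79 kb after the start. The Ebf1 region 5.13 kb before its own start held 9.86 tags in Ebf1-KO cells and 11.5 tags in Wt cells, which says nothing about the deletion itself.

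Octamer factor Pou2f2 and the Ets factor Spib went the other way. The Spib region held 43.6 tags in Ebf1-KO cells and 14.4 tags in Wt cells, 3.03-fold higher (2.32 to 4.00). The Pou2f2 intron region held 17.4 tags in Ebf1-KO cells and 7.00 tags in Wt cells, 2.49-fold higher (1.67 to 3.77). The Tcf4 promoter region was equal at 22.65 tags in Ebf1-KO cells and 22.7 tags in Wt cells, and a distal Tcf4 intron region was lower.

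Genes of pre-BCR and BCR signalling were divided. Of 29 listed genes 16 had 23 regions, of which 9 were lower in Ebf1-KO cells, 1 was higher and 13 were neither, with a median difference of -0.50. The share lower, 39.1%, lies near the 32.4% of all regions. The same counts of 9 and 1 were obtained with TMM scaling. The promoter region of Cd79a, the signalling chain Ig-alpha (chr7:24896982-24897767), held 7.55 tags in Ebf1-KO cells and 36.3 tags in Wt cells, 4.81-fold lower (3.36 to 7.07). The region of Cd79b, its partner Ig-beta, held 6.92 tags in Ebf1-KO cells and 23.1 tags in Wt cells. It is 3.34-fold lower (2.25 to 5.06) and lies 6.21 kb from the assigned start.

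The surrogate light chain genes differed among themselves. Igll1 (lambda 5) held 5.45 tags in Ebf1-KO cells and 18.5 tags in Wt cells at its promoter region, 3.40-fold lower (2.19 to 5.46). Vpreb1 held 2.73 tags in Ebf1-KO cells and 8.89 tags in Wt cells, 3.26-fold lower (1.74 to 6.57). The promoter region of its close relative Vpreb2 held 12.6 tags in Ebf1-KO cells and 15.1 tags in Wt cells, and its distal region, 11.1 kb before the start, 28.9 tags in Ebf1-KO cells and 28.6 tags in Wt cells, and neither was called. Vpreb1 and Vpreb2 are near-identical genes, so tags may be split between them.

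Further lower regions belonged to Cr2 (complement receptor), Fcrl1 (Fc receptor-like protein), Prkcb (protein kinase C beta), a Vav2 intron and a distal Pik3ap1 region. Pik3ap1, the adaptor BCAP, had 1.89 tags in Ebf1-KO cells and 20.1 tags in Wt cells 5.99 kb before its start, while its promoter region held 32.5 tags in Ebf1-KO cells and 42.8 tags in Wt cells. Dok3, an inhibitory adaptor, had among the highest BRG1 of all regions, with 56.8 tags in Ebf1-KO cells and 49.2 tags in Wt cells, and was not called. In the Src-family kinase gene Blk, 1 intron region 6.06 kb after the start was higher, with 26.6 tags in Ebf1-KO cells and 5.68 tags in Wt cells (4.69-fold, 3.13 to 7.24), and its other 3 regions were neither.

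**Figure D2:**
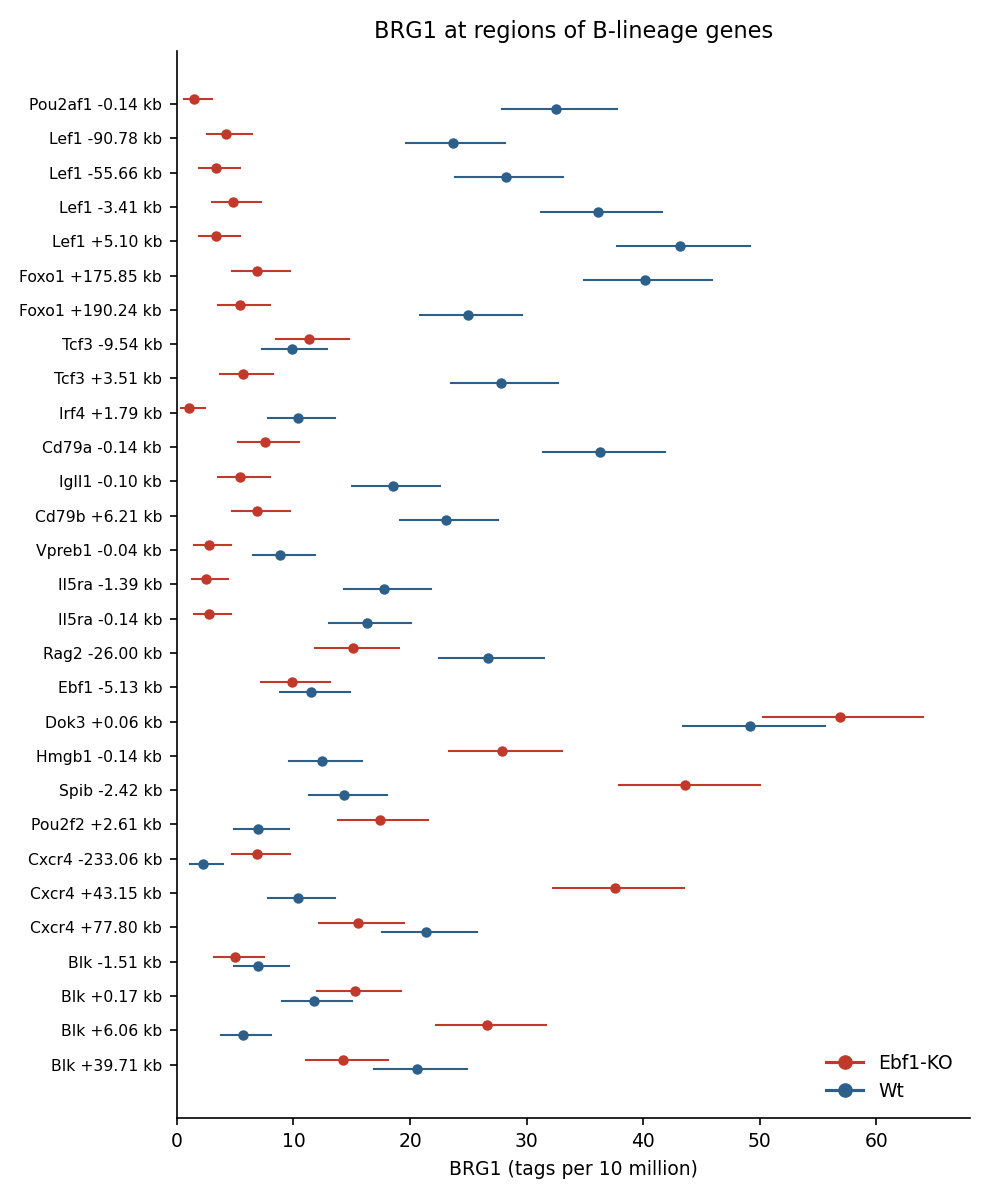
BRG1 (x axis, scaled tags) at every region of 18 B-lineage genes, with Ebf1-KO in red above Wt in blue, a point for each library and bars for the 95% counting interval; labels give the distance to the gene start in kb. Intervals stand apart at Pou2af1 and at every region of Lef1, Foxo1 and Il5ra with Ebf1-KO lower, and at Spib and Hmgb1 with Ebf1-KO higher, while those of Ebf1 and Dok3 overlap.

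Among cytokine and chemokine receptors and surface antigens, 8 of 28 listed genes had 11 regions, 4 lower (36.4%) and 2 higher in Ebf1-KO cells, and the same with TMM scaling. The share lower lies near the 32.4% of all regions. Both regions of Il5ra, the interleukin-5 receptor chain, were lower, with 2.73 and 2.52 tags in Ebf1-KO cells and 16.3 and 17.8 tags in Wt cells. Il2ra (CD25) and Cd24a were lower as well, Cd24a with 9.02 tags in Ebf1-KO cells and 27.4 tags in Wt cells. Cxcr4, the receptor of the marrow chemokine Cxcl12, had 2 higher regions: that 43.1 kb after its start held 37.5 tags in Ebf1-KO cells and 10.4 tags in Wt cells (3.61-fold, 2.65 to 4.97). Bst1 held 26.2 tags in Ebf1-KO cells and 34.1 tags in Wt cells and was not called.

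The V(D)J recombination list had 3 regions. The intron region assigned to Rag2 held 15.1 tags in Ebf1-KO cells and 26.7 tags in Wt cells, and the region near Dntt (terminal transferase) 10.3 tags in Ebf1-KO cells and 21.8 tags in Wt cells. Hmgb1, a DNA-bending cofactor, was higher at its promoter region, with 27.9 tags in Ebf1-KO cells and 12.5 tags in Wt cells. Dntt was just past 2-fold lower and passed no longer with TMM scaling.

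The 4 measured genes of cell cycle and survival had 7 regions with a median difference of 0.75. Of these regions 1 was lower (14.3%, against 32.4% of all regions) and 0 higher. With TMM scaling the median was 1.06 and 4 of the 7 were higher, against 16.6% of all regions. Several of the 7 regions belong to Ccnd3, so they are not separate genes. Bad, a pro-death BH3 protein, held 53.7 tags in Ebf1-KO cells and 28.2 tags in Wt cells. Bcl2l1, which encodes the survival protein Bcl-xL, held 39.2 tags in Ebf1-KO cells and 22.9 tags in Wt cells. Cdkn2c, a cell cycle inhibitor, held 18.0 tags in Ebf1-KO cells and 11.0 tags in Wt cells. With the deposited scaling the regions of Bad, Bcl2l1 and Cdkn2c were not called. At Ccnd3 (cyclin D3), BRG1 was 9.86 tags in Ebf1-KO cells and 32.5 tags in Wt cells at a region 36.4 kb before a start (3.30-fold lower, 2.38 to 4.66), and 46.8 tags in Ebf1-KO cells and 24.2 tags in Wt cells at another 37.2 kb after one.

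Genes of the remodelling machinery were also among the regions. Smarca4, the gene of BRG1 itself, held 48.2 tags in Ebf1-KO cells and 29.3 tags in Wt cells at its promoter region (1.64-fold, 1.34 to 2.03). Its intron region 9.41 kb after the start held 17.0 tags in Ebf1-KO cells and 39.0 tags in Wt cells, 2.29-fold lower (1.77 to 3.00), and that at 36.1 kb 20.6 tags in Ebf1-KO cells and 35.2 tags in Wt cells. Of 7 regions of 3 such genes, 2 were lower (28.6%, near the 32.4% of all regions) and 0 higher, and with TMM scaling 0 were lower and 1 higher. Of stem and multipotent progenitor factors, 3 genes had 4 regions, among which 1 Id3 region was lower with 6.50 tags in Ebf1-KO cells and 16.3 tags in Wt cells; with TMM scaling none was. Cd5, the only T-lineage marker present, held 8.39 tags in Ebf1-KO cells and 11.4 tags in Wt cells.

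Ratios were also low at genes outside these lists. Of regions with a value of at least 20 in either genotype, the 10 genes with the lowest ratio among regions open in Wt only held 0 to 3.36 tags in Ebf1-KO cells and 25.2 to 54.3 tags in Wt cells. A region 113.8 kb before Ufm1, a ubiquitin-like modifier, had 0 tags in Ebf1-KO cells and 225 tags (a value of 42.6) in Wt cells, at least 67.7-fold lower against the floor of 3 counts in the Ebf1-KO library, which is the one-sided 95% limit of a count of 0. Col6a6 (a collagen chain, 0.42 tags in Ebf1-KO cells and 29.7 tags in Wt cells), Gopc, Myh10 and Grb7 followed. The region 46.6 kb from the signalling adaptor gene Grb7 had the highest Wt value of all 1172, with 2.73 tags in Ebf1-KO cells and 54.3 tags in Wt cells. At the other end of this class, the region of Rtf1, a Paf1-complex-associated elongation factor, held 27.3 tags in Ebf1-KO cells and 21.2 tags in Wt cells, and the other 9 of the 10 highest genes had differences of -0.54 to -1.13.

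Among regions open in both genotypes, the 10 lowest genes were Trem1, Gpm6a, Pou2af1, Vps8, Txnrd3, Pon2, Dnah1, Lef1, Plxna1 and Kynu, with 0 to 3.98 tags in Ebf1-KO cells and 21.2 to 49.0 tags in Wt cells. Trem1, a receptor of myeloid cells, had 0 tags in Ebf1-KO cells and 112 tags (a value of 21.2) in Wt cells at its promoter region, at least 33.7-fold lower. The highest included Grm4, A230028O05Rik, Adora2a, Naa60, Tfeb, Fosb, Trappc10, Entpd1 and Blk, with 23.9 to 45.5 tags in Ebf1-KO cells and 3.03 to 8.33 tags in Wt cells. The region 23.7 kb before Grm4, a glutamate receptor gene, held 44.9 tags in Ebf1-KO cells and 4.35 tags in Wt cells (10.3-fold, 6.69 to 16.6). The region near Fosb, an AP-1 subunit, held 45.5 tags in Ebf1-KO cells and 8.33 tags in Wt cells (5.47-fold, 3.94 to 7.74).

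The genes with the most BRG1 in both genotypes were mostly not called. The 10 highest means belonged to Ptma, Cyp4f18, Cyth1, Neu1, Gm7325, Dok3, Bcat1, Myo1c, Camk2d and Kansl1l, all at regions open in both. They held 49.1 to 78.4 tags in Ebf1-KO cells and 27.6 to 53.6 tags in Wt cells. Cyp4f18 and Gm7325 were at least 2-fold higher in Ebf1-KO cells, and none of the 10 was lower. That none was lower follows from the ranking by the mean of both genotypes. The highest Wt value of all regions was 54.3 tags, too low for a region at least 2-fold lower to reach these means.

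By position, the share of lower regions was smallest near gene starts. Within 1 kb of a start 73 of 360 regions (20.3%) were lower in Ebf1-KO cells, against 33.7% of 338 regions at 1 to 10 kb, 38.6% of 355 at 10 to 50 kb and 47.1% of 119 beyond 50 kb. The share of higher regions was 9.17%, 9.17%, 13.0% and 5.88% in the same order. Within the regions open in Wt only, 78 of 108 intergenic regions were lower and 0 higher, beside 68 lower and 4 higher of 112 introns and 10 lower and 1 higher of 19 promoters. Within the regions open in both, the median difference was -0.05 at 266 intergenic regions, -0.21 at 372 introns and 0 to 2 decimals at 159 promoters. Their share of lower regions was 23.3%, 26.9% and 19.5% in the same order.

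Regions that also carry a Pax5 peak in the deposited peak lists, from the 230-238 line, were lower more often. Of those open in Wt only, 72 of 93 with a Pax5 peak were lower in Ebf1-KO cells (77.4%, median -1.65), against 93 of 163 without one (57.1%, median -1.18). Of those open in both, 143 of 543 with a Pax5 peak were lower (26.3%, median -0.15), against 72 of 373 without one (19.3%, median -0.01). Regions with a Pax5 peak were longer and held more tags, with median lengths of 839 and 568 bp among those open in Wt only, and the part of this in the shares was not tested.

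Fli1, an Ets factor of early hematopoietic cells, and Ikzf1 (Ikaros) had peak lists from Wt progenitors, and at least 1 shared base was taken as overlap. In the class open in Wt only, 75 of 97 regions with a Fli1 peak alone were lower in Ebf1-KO cells (77.3%) and 28 of 38 with both peaks (73.7%), against 57 of 111 with neither (51.4%). With an Ikzf1 peak alone, 5 of 10 were lower (50%). At Fli1 alone, both and neither, median Ebf1-KO BRG1 per kb was 5.21, 5.22 and 5.25 tags, and median Wt BRG1 per kb was 20.8, 25.0 and 14.2 tags. In the class open in both, 85 of 385 regions with a Fli1 peak alone were lower (22.1%), 72 of 250 with both (28.8%), 10 of 26 with an Ikzf1 peak alone (38.5%) and 48 of 255 with neither (18.8%), and the last group had 45 higher regions (17.6%). Both peak lists come from Wt cells.

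Ebf1-KO BRG1 followed the accessibility that exists without Ebf1. Ebf1-KO cells with an Ebf1ER vector, an Ebf1 that 4OHT activates, gave ATAC-seq signal at all 1172 regions at 0, 6, 24 and 72 h, deposited as the authors' pooled value for each time. Regions were ranked by signal per kb at 0 h and cut into 4 groups of 293. From the least to the most accessible group, median Ebf1-KO BRG1 per kb was 5.01, 8.50, 16.3 and 21.7 tags, while median Wt BRG1 per kb was 15.9, 16.0, 15.9 and 17.5 tags. The share of lower regions was 64.8%, 41.0%, 17.1% and 6.83%, and the median difference -1.47, -0.68, -0.04 and 0.25. The same order was seen among the regions open in both alone, with median differences of -1.30, -0.50, -0.04 and 0.25.

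**Figure D3:**
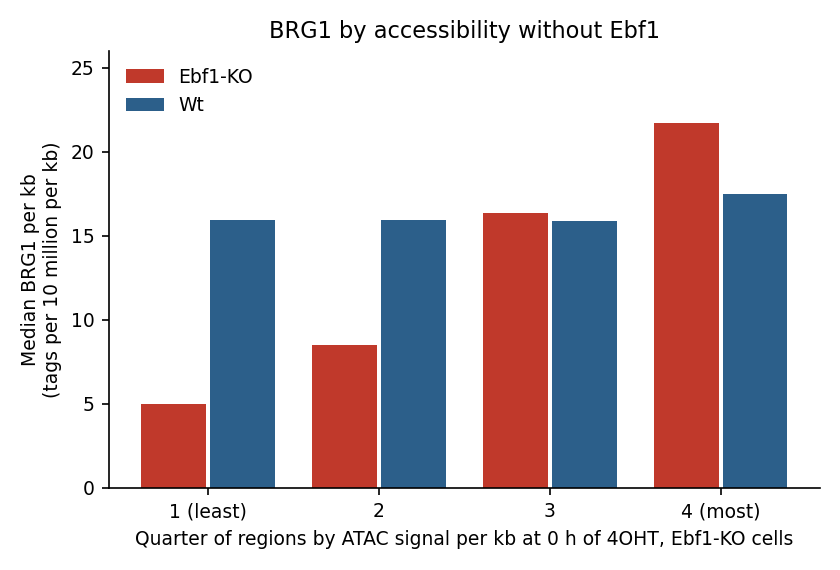
Median BRG1 per kb (y axis, scaled tags per kb, from 0) in Ebf1-KO (red) and Wt cells (blue) for 4 groups of 293 regions ordered by ATAC-seq signal per kb at 0 h of 4OHT in Ebf1-KO cells (x axis). Ebf1-KO bars climb with the group, 5.01 to 21.7, while Wt bars stay between 15.9 and 17.5.

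BRG1 was lower at a larger share of the regions that gained at least 2-fold accessibility after 4OHT. Signal was at least 2-fold higher at 72 h than at 0 h at 213 of 1172 regions (18.2%). Among those open in both, the 152 regions that gained this much had median BRG1 of 11.2 tags in Ebf1-KO cells and 19.5 tags in Wt cells and were lower in 57 cases (37.5%), against 158 of 764 other regions (20.7%). Among those open in Wt only, 45 of 61 such regions were lower (73.8%), against 120 of 195 others (61.5%). The regions that gained also began with less signal. Their median at 0 h was 6.98 tags, against 15.97 at the others, among those open in both, and 2.33 against 2.96 among those open in Wt only. The part of this in the shares was not tested. Over all regions of a class the relation was weak: the BRG1 difference and the 72 h gain had a Spearman rho of -0.13 over the 916 regions open in both and -0.09 over the 256 open in Wt only. The Cd79a promoter region had 5.07, 13.8, 20.2 and 31.4 tags at 0, 6, 24 and 72 h, and Igll1 had 4.65, 12.4, 19.1 and 36.6 tags. Pou2af1 had 7.40, 6.05, 5.74 and 11.8 tags, and Grb7 had 1.69, 4.03, 1.37 and 1.44 tags.

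EP300 and PolII were measured at the same regions with 1 library per genotype. The label of the Wt EP300 library names PolII antibodies with a question mark, whereas that of the Ebf1-KO library names an EP300 antibody, so the Wt EP300 values may not be EP300. With that limit, EP300 was at least 2-fold lower in Ebf1-KO cells at 433 regions (36.9%) and higher at 129 (11.0%), and PolII lower at 621 (53.0%) and higher at 41 (3.50%). Scaling on the regions removed shifts of -0.59 for EP300 and -1.17 for PolII. It turned the regions open in both to 175 lower and 238 higher for EP300, against 273 and 111 as deposited, and to 178 lower and 251 higher for PolII, against 418 and 41. The counts of joint calls that follow are for the deposited scaling unless said. Of the 165 regions with lower BRG1 open in Wt only, 126 were also lower for EP300 (76.4% of them, and 78.8% of the 160 lower for EP300) and 145 for PolII (87.9%, and 71.4% of 203). Over all 256 regions of this class, 62.5% were lower for EP300 and 79.3% for PolII, so the PolII share lies near that of the class. Of the 215 regions with lower BRG1 open in both, 154 were lower for EP300 (71.6%, and 56.4% of 273) and 178 for PolII (82.8%, and 42.6% of 418). Over all 916 regions of that class, 29.8% were lower for EP300 and 45.6% for PolII.

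Of 110 regions with higher BRG1 open in both, 45 were higher for EP300 (40.9%, and 40.5% of 111) and 19 for PolII (17.3%, and 46.3% of 41). Over all 916 regions of this class, 12.1% were higher for EP300 and 4.48% for PolII. With TMM scaling of each factor, 82 of 139 regions with lower BRG1 open in Wt only were lower for EP300 and 93 for PolII. Over all 256 regions of that class, 119 were then lower for EP300 and 137 for PolII. Of 168 regions with lower BRG1 open in both, 108 were lower for EP300 and 105 for PolII, and of 186 with higher BRG1, 115 were higher for EP300 and 104 for PolII. Over all 916 regions, 175 were then lower and 238 higher for EP300, and 178 lower and 251 higher for PolII. Regions lower for BRG1 and higher for PolII numbered 0 of 380 as deposited and 15 of 307 with TMM scaling. The differences for BRG1 and EP300 followed each other with Spearman rho 0.66 over the 916 regions open in both and 0.48 over the 256 open in Wt only, and for BRG1 and PolII with 0.62 and 0.43. Levels per kb within a genotype followed each other more closely than the same factor between genotypes. Over the regions open in both, rho was 0.84 between BRG1 and EP300 in Ebf1-KO cells and 0.71 in Wt cells, against 0.33 for BRG1 and 0.35 for EP300 between the genotypes. EP300 followed PolII with 0.72 in Ebf1-KO cells and 0.69 in Wt cells. These points share regions and cells, and the ratios share no library.

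**Figure D4:**
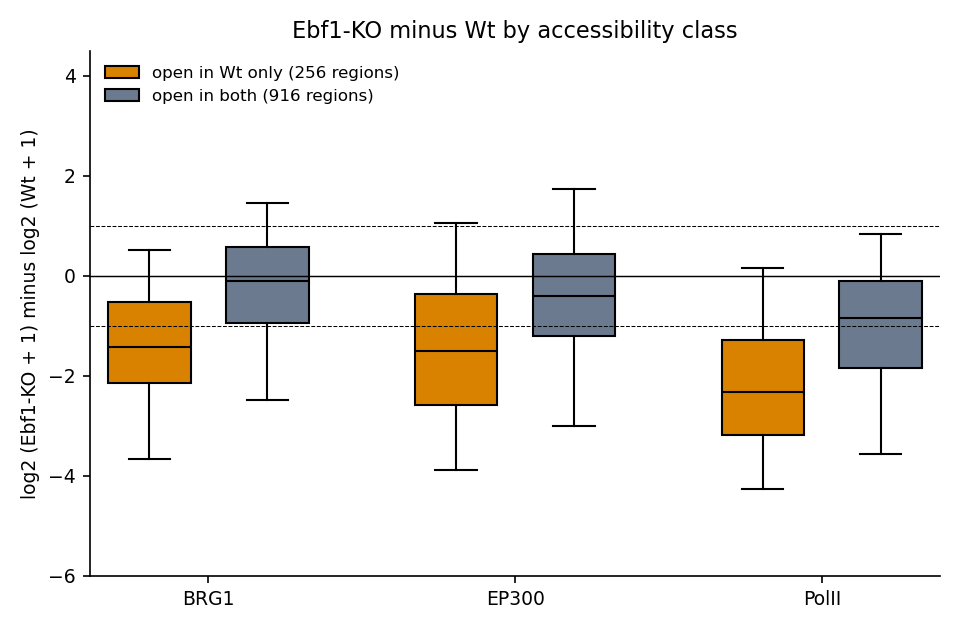
Difference on the log2 (value + 1) scale, Ebf1-KO minus Wt (y axis), of BRG1, EP300 and PolII at regions open in Wt only (orange, 256) and open in both (grey, 916), with the median, quartiles and 5th to 95th percentiles of regions. BRG1 medians are -1.43 and -0.10, EP300 medians -1.50 and -0.40, and PolII medians -2.33 and -0.85; with TMM scaling those of regions open in both turn to 0.21, 0.19 and 0.32. Dashed lines mark 2-fold.

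Histone marks were available at the same positions for 906 regions, with H3K27me3 as the authors' pooled value. At 108 regions open in Wt only with lower BRG1, median H3K4me2 was 3.12 tags in Ebf1-KO cells and 27.9 tags in Wt cells, and H3K27ac by CUT&RUN 3.52 tags in Ebf1-KO cells and 25.6 tags in Wt cells. At the 49 regions of this class with neither call, H3K4me2 was 3.84 tags in Ebf1-KO cells and 15.6 tags in Wt cells, so the marks were lower there too. At 188 regions open in both with lower BRG1, H3K4me2 was 7.43 tags in Ebf1-KO cells and 51.4 tags in Wt cells, and at the 94 with higher BRG1 36.2 tags in Ebf1-KO cells and 30.9 tags in Wt cells. H3K27ac was 6.29 tags in Ebf1-KO cells and 30.8 tags in Wt cells at the 188 regions. At the 94 it was 16.1 tags in Ebf1-KO cells and 24.3 tags in Wt cells. At the 464 with neither call it was 14.4 tags in Ebf1-KO cells and 27.7 tags in Wt cells. The median H3K27ac difference was -1.95 at the 188, -0.79 at the 464 and -0.30 at the 94. It was thus below 0 in each group, and least so where BRG1 was higher. H3K4me2 at the 464 was 40.6 tags in Ebf1-KO cells and 49.7 tags in Wt cells. Median H3K27me3, the Polycomb mark, was 3.495 tags in Ebf1-KO cells and 1.54 tags in Wt cells at the 188 regions, and 0.65 tags in Ebf1-KO cells and 1.36 tags in Wt cells at the 94.

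Accessibility in cells without E2A (the Tcf3 product) was also lower at these regions. Median ATAC-seq signal at the 188 regions open in both with lower BRG1 of the authors' pooled columns was 8.86 tags in E2A-KO cells and 48.6 tags in Wt cells. At the 464 with neither call it was 17.5 tags in E2A-KO cells and 46.9 tags in Wt cells, and at the 94 with higher BRG1 17.1 tags in E2A-KO cells and 23.7 tags in Wt cells. By its header the Wt column pools 6 libraries, and 3 Wt samples are labelled. Over regions, the E2A-KO accessibility difference and the BRG1 difference followed each other with rho 0.53 over 746 regions open in both and 0.55 over 160 open in Wt only.

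Regions of the same gene did not always share a direction. Of 803 named genes 231 had more than 1 region. Of these, 131 had a lower region, 48 a higher one and 14 had both. For comparison, 32.4% of all regions were lower and 9.98% higher. Genes with several regions can hold both calls from these shares alone. Whether the 14 genes with both are more or fewer than that was not tested. These 14 were Adora2a, Alpl, Chd7, Dnajb12, Fam43a, Gm15708, Gm7325, Klhl24, Mad1l1, Mtss1, Pxk, Scd1, Snord17 and Tanc1, and they were picked out by their calls. In Tanc1, a scaffold protein gene, an intron region 5.92 kb after the start held 17.6 tags in Ebf1-KO cells and 4.54 tags in Wt cells, and another 71.1 kb after it 4.82 tags in Ebf1-KO cells and 20.1 tags in Wt cells. In Adora2a, an adenosine receptor gene, the region 16.9 kb before the start held 32.7 tags in Ebf1-KO cells and 3.41 tags in Wt cells, and that 21.7 kb before it 4.61 tags in Ebf1-KO cells and 14.4 tags in Wt cells. Every region was lower in 36 of the 231 genes, Lef1 among them, and this count was not tested against the shares of all regions either.

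**Figure D5:**
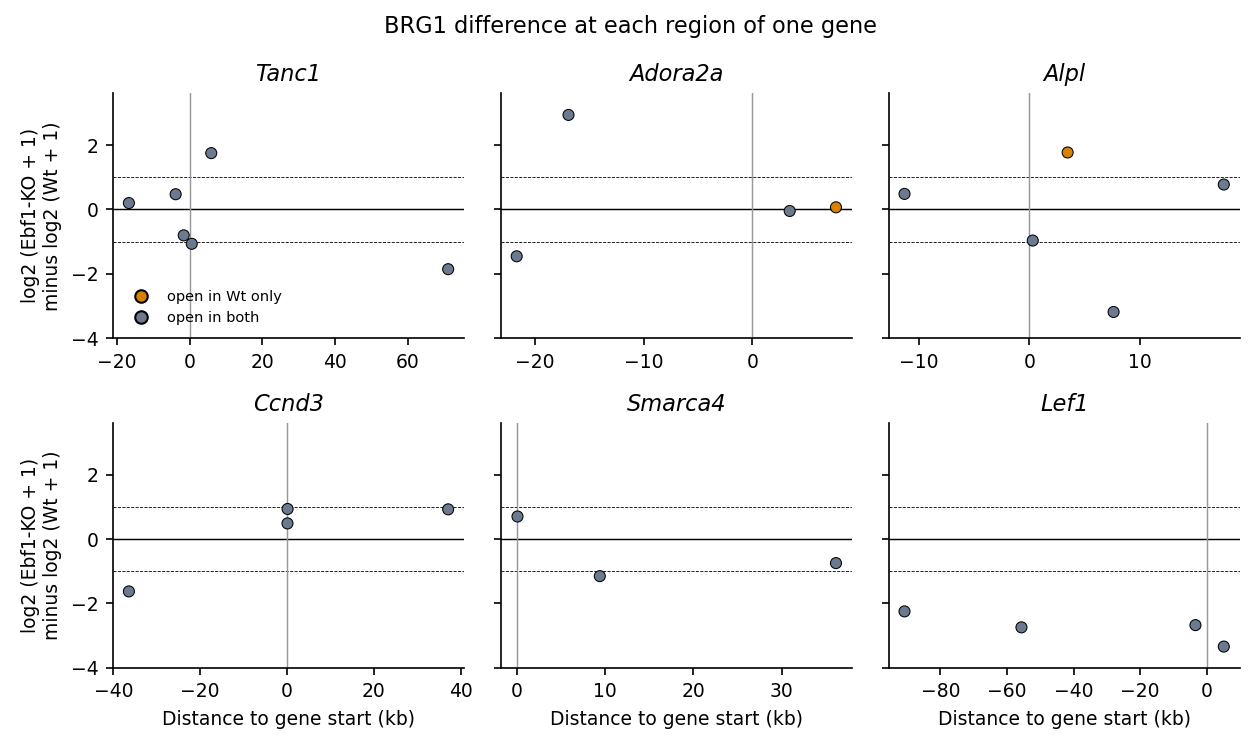
BRG1 difference on the log2 (value + 1) scale, Ebf1-KO minus Wt (y axis), by distance to the gene start in kb (x axis) for each region of 6 genes chosen after their values were seen; colours give the accessibility class, and dashed lines mark 2-fold. Tanc1, Adora2a and Alpl hold points past both dashed lines, Ccnd3 and Smarca4 past the lower one, and all 4 Lef1 points lie below -2.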

How the data were processed

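BRG1, EP300 and PolII ChIP-seq values were taken from both deposited tables of Ebf1-bound regions (mm10 per the submitters' processing notes). The signal values are HOMER tag counts in each region, deposited after scaling every library to a total of 10000000 tags, per the file headers, with no division by region length. The deposited score columns (merged regions, and Fli1 and Ikzf1 peaks) are the authors' own and were not used in a comparison. ATAC-seq and histone mark columns are scaled the same way, and several pool libraries. Repeated rows were dropped (122 for the marks, 154 for E2A), keeping the first of each position, and 2 columns of the E2A table were not used. Input libraries were not analysed here.

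Multiplying by the library totals in the headers gave whole tags within 0.1 tag in 1172 of 1172 regions. Differences are log2 (value + 1), Ebf1-KO minus Wt, and a call is at least 2-fold. Folds with intervals are ratios of scaled tags with exact conditional binomial 95% intervals, and intervals of medians are over regions. TMM trimmed 30% of ratios and 5% of mean levels. The computation was tested on simulated data. Alternatives were TMM scaling, other pseudocounts, a minimum mean, a length window, a 1.5-fold threshold and another overlap rule. Regions were named as the 10 lowest and 10 highest ratios per accessibility class with a value of at least 20, the 10 highest means, members of 12 gene lists, and a fixed set of B-lineage loci. Some genes that this rule selects are not reported here. Genes with both a lower and a higher region were named after their values were seen. The regions, lists and loci were chosen with earlier results of these data known. Promoter sequences are from RefSeq (GRCm38.p6). Python 3.11.15, numpy 2.4.6, pandas 2.3.3 and SciPy 1.17.1 were used.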

Additional observations from a re-analysis of the deposited data

How the results depend on the processing

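Of 130 values recomputed under alternatives, 74 stayed within their tolerance. Of 46 recomputed medians 6 changed sign, 5 of them under TMM scaling and that of promoters also under the minimum mean of 10 (0.013). With TMM scaling the BRG1 median of all regions was 0.018 with 195 higher regions, that of regions open in Wt only was -1.13, and that of regions open in both was 0.21 with 186 higher. By annotation, TMM scaling gave 0.27 at promoters (27 lower, 32 higher), -0.071 at introns (83 higher) and -0.12 at intergenic regions. By list it gave a median of -0.20 for pre-BCR and BCR signalling, 1.06 with 4 higher regions for cell cycle and survival, 0 lower for V(D)J recombination, 0 lower for stem and multipotent progenitor factors, and 0 lower and 1 higher for remodelling subunits. For EP300 it gave -0.91 (28 higher) at regions open in Wt only and 0.19 (175 lower, 238 higher) at regions open in both. For PolII it gave -1.16 (21 higher) and 0.32 (178 lower, 251 higher) in the same order. Joint lower calls with BRG1 were then 82 for EP300 and 93 for PolII at regions open in Wt only and 105 for PolII at regions open in both, where joint higher calls were 115 for EP300 and 104 for PolII. TMM assumes that most regions do not differ. A pseudocount of 5 left 68 higher regions in all, 1 of them open in Wt only and 67 open in both, and a median of -0.90 at regions open in Wt only, where a pseudocount of 0.1 gave -1.65. Keeping regions with a mean of at least 10 gave a median of -0.11 with 212 lower in all, -1.65 with 63 lower and 0 higher among those open in Wt only, and -0.0087 among those open in both. The same filter gave 24 lower and 9 higher promoters, -0.16 with 87 lower introns, -0.18 with 83 lower intergenic regions, and 1 higher region among receptors and surface antigens; it leaves fewer regions to call. Within 500 to 1000 bp, 108 regions open in Wt only were lower and 4 higher, and 74 and 57 of those open in both. A 1.5-fold threshold called 232 higher regions. Except where a setting leaves fewer regions, the cause was not tested. No paired analysis was possible because each genotype has 1 library per factor. With 1 library per genotype, no value here has a replicate check. The counting interval included equality at 1 of 380 lower and 0 of 117 higher calls, and excluded it at 301 of 675 regions with no call.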

Other observations

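BRG1 had 0 tags in 1 genotype at 18 regions, 15 of them in Ebf1-KO cells and 3 in Wt cells. By the floor of 3 counts (the one-sided 95% limit), a count of 0 allows a value of up to 0.629 in the Ebf1-KO library and 0.568 in the Wt library.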
